A study of Mus musculus with 13 samples.

Results

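The transcripts described here are those of 10 genes of insulin and insulin-like growth factor (IGF) signalling, read from the rows of the normalized count table that carry their symbols, in the gastrocnemius, a calf muscle, of mice from 3 treatment groups. They are the ligands Igf1 and Igf2, the receptors Igf1r and Insr, the receptor substrates Irs1 and Irs2, the adaptor Grb10, and the binding proteins Igfbp3, Igfbp4 and Igfbp5. They were chosen by name from 21868 genes in the table. All 10 passed the filter on low values (a mean of at least 10 normalized counts over the 13 mice), as did 12303 genes in all.

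The mice were obese C57BL/6 males (C57BL/6N by the study's account of the sequenced animals), 7 weeks old on arrival, which had eaten a diet with 60 kcal% fat for 15 to 17 weeks before the treatments began. All groups were then moved to standard chow and treated for 3 weeks. The vehicle group (n = 5) received the injection vehicle. The semaglutide group (n = 5) received semaglutide at 30 nM/kg/day by intraperitoneal injection. The semaglutide + ketone ester group (n = 3) received the same injections with a ketone ester at 0.114 g/mL in its drinking water. For the vehicle and semaglutide groups the labels also name a placebo, which is not described in the sources used here. Semaglutide is a glucagon-like peptide-1 receptor agonist that lowers food intake, and the ketone ester is broken down to the ketone body β-hydroxybutyrate. Because the change to chow was common to all 3 groups, no mouse stayed on the high-fat diet, and no group received the ketone ester without semaglutide, so the effect of the ester on its own was not measured. The study asked how semaglutide alters skeletal muscle and whether the ester modifies this.

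Insulin and the IGFs bind related receptor tyrosine kinases, INSR and IGF1R, which phosphorylate the substrates IRS1 and IRS2. These recruit PI3 kinase and so activate AKT, which in muscle promotes glucose uptake and protein synthesis and keeps FOXO transcription factors out of the nucleus, while a side branch runs through RAS to ERK. IGF-binding proteins hold IGFs in the blood and in the tissue and set how much reaches the receptors.

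Each library came from the muscle of 1 mouse and held between 15319471 and 23498162 recovered reads. All 6 muscle fibre markers passed the filter. Their summed normalized counts were between 2.78e+06 and 3.42e+06 in vehicle mice and between 1.85e+06 and 3.32e+06 in semaglutide mice. In ester mice they were between 3.60e+06 and 4.26e+06, above every mouse of both other groups. Of these markers 2 were lower in semaglutide than in vehicle (median log2 difference over the 6 of -0.37) and 4 were higher in the ester group than in semaglutide (median 0.68). Of 5 blood markers, 0 were called between semaglutide and vehicle, though their median log2 difference was -2.41. In the ester group 4 were higher than in semaglutide (median 3.93). Calls in both lists stood beside 25.1% of all genes for semaglutide against vehicle and 18.4% for the ester group against semaglutide. The part of these markers in the results was not tested. Semaglutide mouse 13 stood apart from its group. On the first principal component of all tested genes, which held 38.1% of the variance, it lay at -9.12, while the other 4 semaglutide mice lay between 31.8 and 52.5, the vehicle mice between -24.5 and -12.8 and the semaglutide + ketone ester mice between -25.6 and -15.8. Results that rest on this mouse are given with and without it. In whole muscle RNA, fewer cells of a type and less RNA per cell cannot be told apart.

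In semaglutide mice against vehicle mice, transcripts of the receptor Igf1r and of the binding protein Igfbp3 were higher, by 1.87-fold and 1.91-fold. Those of the binding protein Igfbp5 were lower, at 0.18 of the vehicle level. These ratios are from the fit on the log2 scale. The mean normalized counts of Igfbp5 were 5927 in semaglutide and 13203 in vehicle mice. The Igfbp5 call depended on the mice and the test used, since semaglutide mouse 13 had the highest value of all 13 mice (without it the level was 0.105 of vehicle), and it was lost in 8 of 13 fits with 1 mouse left out and in edgeR. The other 7 genes did not pass the test (limma, adjusted p under 0.05 over all 12303 genes). With the ketone ester added, Igf1r, Insr, Irs2 and Grb10 were lower than with semaglutide alone and Igf2 was higher. Against vehicle, none of the 10 genes passed in semaglutide + ketone ester mice. There, 4 (Irs2, Igf2, Igf1 and Grb10) had an unadjusted p under 0.05 (limma), beside 1289 of all 12303 genes tested. DESeq2 on the recovered reads called 2 of these 4 (Irs2 and Igf2) and edgeR called 0. Over all genes these tests called 172 and 45.

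The 3 genes called of 10 in semaglutide against vehicle stood beside 25.1% of all genes tested, of which 1459 were higher and 1625 lower. The 5 called in semaglutide + ketone ester against semaglutide stood beside 18.4% of all genes, with 1118 higher and 1144 lower. The 0 called against vehicle stood beside 0.236%. The median log2 difference over the 10 genes was 0.29, -0.32 and 0.07 in these comparisons, beside medians over all genes tested of -0.0029, -0.00024 and -0.0059. The first and the second comparison share the semaglutide mice, so opposite signs in them are no independent evidence. When the libraries were rescaled to equal totals, the median over all genes moved to 0.17 and -0.24. The calls over all genes then split as 3262 higher and 929 lower for semaglutide against vehicle, and as 611 higher and 3587 lower for semaglutide + ketone ester against semaglutide. Under that scaling, 5 of the 10 genes were called higher and 1 lower in the former, and 0 higher and 5 lower in the latter.

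**Figure D1:**
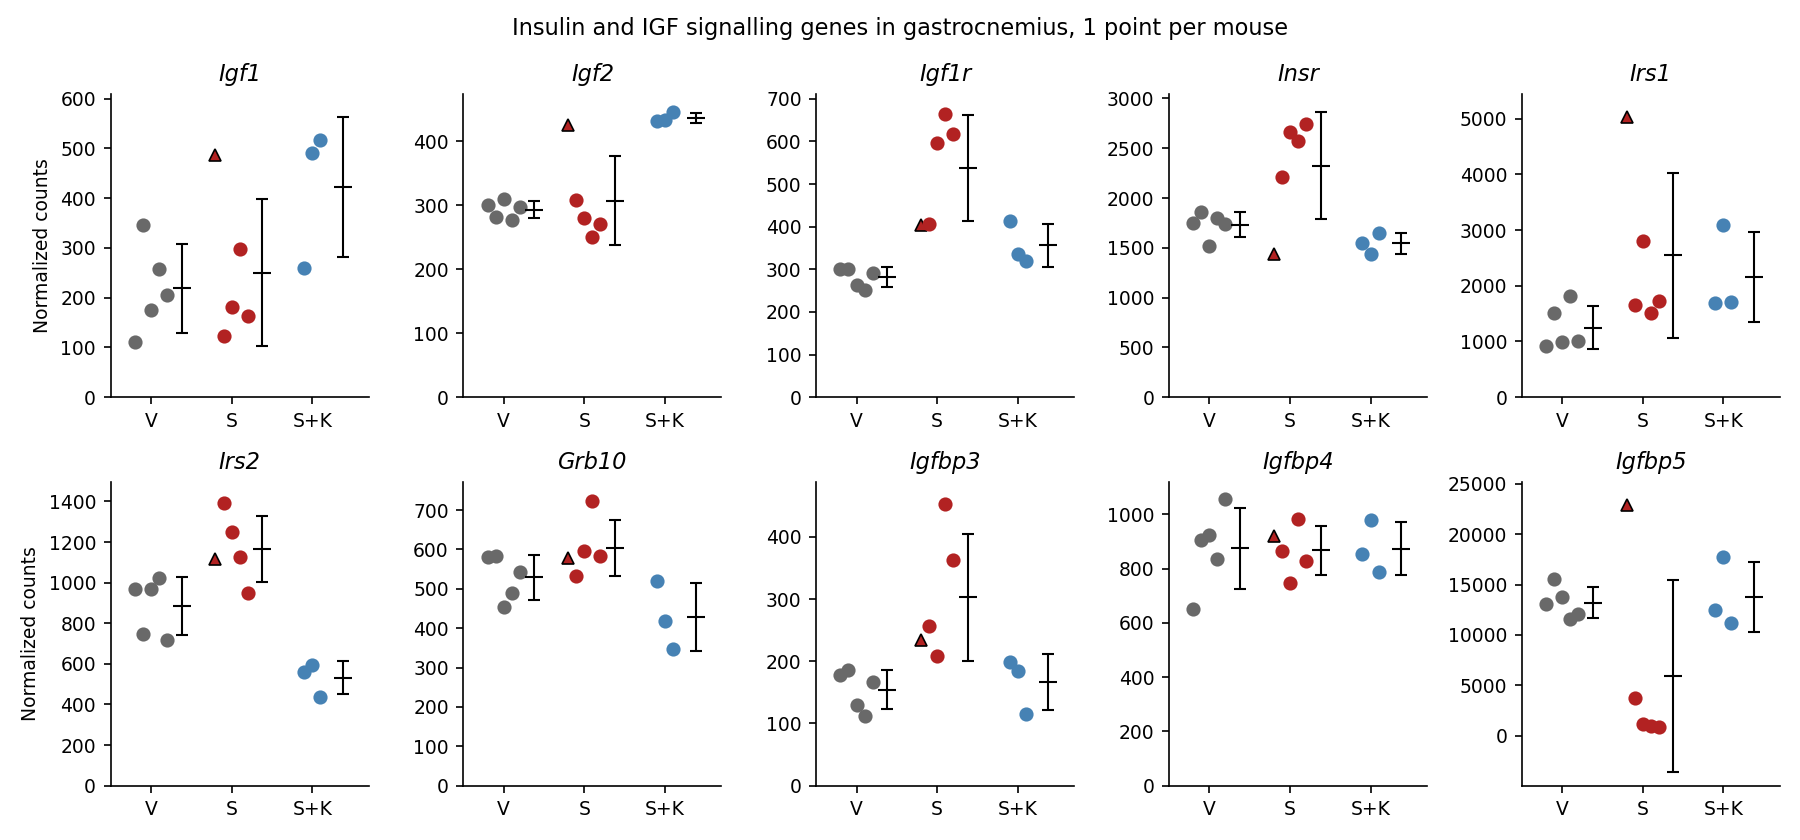
Normalized counts (vertical axis, linear, a separate scale in each panel) of the 10 genes, where V marks vehicle mice, S the mice given semaglutide alone and S+K those also given the ketone ester. Each point is 1 mouse, the triangle is semaglutide mouse 13, and the bar to the right of the points is the mean with its SD (n = 5, 5 and 3). Igf1r in all 5 semaglutide mice lay above all 5 vehicle mice, and Igfbp5 in mouse 13 (22891) lay far above the other 4 semaglutide mice.

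Igf1r encodes the IGF-1 receptor (GRCm38, chr7:67952827-68233668, plus strand). Its normalized counts were 299.8, 301.0, 262.3, 250.6 and 292.2 in vehicle mice 1 to 5, 403.3, 405.7, 595.4, 664.2 and 618.4 in semaglutide mice 13 to 17, and 414.2, 335.8 and 318.5 in semaglutide + ketone ester mice 19, 21 and 22. Every semaglutide mouse was above every vehicle mouse, with mice 13 and 14 the lowest of their group, and the semaglutide + ketone ester mice lay above vehicle while reaching into the semaglutide range. The semaglutide mean of 537 ± 124 (SD, n = 5) was higher than the vehicle mean of 281 ± 23.2 (SD, n = 5), with a log2 fold change of 0.90 (SE 0.15, adjusted p = 0.0019, limma). The call held when any of the 13 mice was left out. Non-overlap of semaglutide and vehicle was also seen in Igfbp3, and it held for 14.7% of all genes tested.

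With the ketone ester, Igf1r had a mean of 356 ± 51.0 (SD, n = 3) and was 0.67 of the semaglutide level (log2 fold change -0.57, SE 0.18, adjusted p = 0.042, limma). This call was lost in 10 of the 13 fits that left out 1 mouse, namely without any vehicle mouse, semaglutide mouse 15, 16 or 17, or semaglutide + ketone ester mouse 21 or 22, with adjusted p up to 0.153. It was also lost without a filter on low values (0.069), with quantile normalization (0.056) and with only the 2 groups compared in the fit (0.12). Against vehicle the difference of 0.33 (SE 0.18) had an adjusted p of 0.56 (limma).

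Insr encodes the insulin receptor (chr8:3122061-3279617, minus strand). It had 1748, 1858, 1519, 1797 and 1739 normalized counts in vehicle mice 1 to 5, 1441, 2210, 2664, 2570 and 2745 in semaglutide mice 13 to 17, and 1545, 1442 and 1645 in semaglutide + ketone ester mice 19, 21 and 22. Semaglutide mice 14 to 17 were all above the highest vehicle mouse, whereas mouse 13 was below the lowest, so that the groups overlapped. The difference between semaglutide (2326 ± 535, SD, n = 5) and vehicle (1732 ± 128, SD, n = 5) was 0.39 on the log2 scale (SE 0.16, adjusted p = 0.085, limma), and 0.55 (adjusted p = 0.00074) without mouse 13. With all mice kept, edgeR and DESeq2 called it (adjusted p = 0.037 and 0.020), as did limma with equal totals (0.025) and with weights per mouse (0.0022). The semaglutide + ketone ester mice (1544 ± 101, SD, n = 3) were at 0.68 of the semaglutide level, at the edge of the test (log2 fold change -0.56, SE 0.18, adjusted p = 0.0499, limma). That call held in 1 of 13 fits with a mouse left out, the fit without mouse 13, where the difference was -0.72 (adjusted p = 0.00048), and adjusted p reached 0.156 in the other 12. It was also lost with a pseudocount of 0.5 (0.0503), without a filter (0.082), with quantile normalization (0.078) and with only the 2 groups in the fit (0.14). Against vehicle they differed by -0.16 (SE 0.18, adjusted p = 0.84, limma).

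Within each mouse, the log2 ratio of Igf1r to Insr was between -2.84 and -2.53 in vehicle mice, between -2.44 and -1.83 in semaglutide mice and between -2.37 and -1.90 in semaglutide + ketone ester mice. All 8 treated mice, mouse 13 included, thus had more Igf1r relative to Insr than any vehicle mouse. This ratio was chosen after the values were seen and was not tested.

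Irs1 and Irs2 encode the substrates that carry the signal from both receptors to PI3 kinase, and Grb10 encodes an adaptor that binds the receptors and inhibits them. FOXO factors can bind insulin response elements in promoters, so the 250 bases before and 50 bases after each transcription start in RefSeq (GRCm38.p6) were searched on both strands for TGTTTAC, a FoxO core, and for TGTTTT, an insulin response core. A given place in a sequence cannot match both, since they differ at the sixth letter. The table held 13 promoters for 9 of the 10 genes. None of the 13 held TGTTTAC, which 3.65% of all 32851 promoters held, and 3 held TGTTTT (those of Irs1, Irs2 and 1 of the pair given for Grb10), which 22.1% of all promoters held. These 3 are shown with the match in capitals, from the strand of the gene, to place the letters near the start sites of the genes described next. A match is a description of the sequence and not a binding site.
Irs1, chr1:82291390-82291689, minus strand: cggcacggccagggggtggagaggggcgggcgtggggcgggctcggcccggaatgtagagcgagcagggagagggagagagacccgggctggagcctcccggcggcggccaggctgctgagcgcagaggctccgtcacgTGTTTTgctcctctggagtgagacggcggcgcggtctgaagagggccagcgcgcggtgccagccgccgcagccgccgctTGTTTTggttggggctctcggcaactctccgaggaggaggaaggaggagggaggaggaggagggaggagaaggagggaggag
Irs2, chr8:11008880-11009179, minus strand: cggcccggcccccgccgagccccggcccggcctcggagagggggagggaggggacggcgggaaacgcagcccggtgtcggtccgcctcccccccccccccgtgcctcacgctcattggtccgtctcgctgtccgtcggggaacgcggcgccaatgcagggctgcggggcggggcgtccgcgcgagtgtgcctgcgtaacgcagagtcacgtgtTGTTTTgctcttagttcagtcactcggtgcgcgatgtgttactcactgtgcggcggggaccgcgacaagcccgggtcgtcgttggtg
Grb10, chr11:12027922-12028221, minus strand: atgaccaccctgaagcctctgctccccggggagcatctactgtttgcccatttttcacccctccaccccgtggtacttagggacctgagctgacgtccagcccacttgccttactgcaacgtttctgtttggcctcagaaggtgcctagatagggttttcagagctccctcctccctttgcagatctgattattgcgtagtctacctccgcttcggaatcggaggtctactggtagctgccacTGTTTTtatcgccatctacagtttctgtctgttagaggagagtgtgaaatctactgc

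Irs2 (chr8:10984681-11008458, minus strand) had the smallest adjusted p of the 10 genes between the treated groups. Its normalized counts were 969.2, 747.6, 968.9, 1021 and 716.1 in vehicle mice 1 to 5, 1117, 1391, 1247, 1127 and 949.6 in semaglutide mice 13 to 17, and 562.3, 594.3 and 438.6 in semaglutide + ketone ester mice 19, 21 and 22. All 3 semaglutide + ketone ester mice were below every mouse of either other group, while semaglutide and vehicle overlapped through mouse 17. The mean was 532 ± 82.2 (SD, n = 3) with the ester against 1166 ± 164 (SD, n = 5) with semaglutide alone, or 0.46 of that level (log2 fold change -1.13, SE 0.16, adjusted p = 0.0019, limma), and this call held when any of the 13 mice was left out. The same direction was seen against vehicle (885 ± 142, SD, n = 5), with a log2 fold change of -0.73 (SE 0.16), but the adjusted p was 0.092 (limma). DESeq2 on the recovered reads called that difference (adjusted p = 0.0016). For semaglutide against vehicle the log2 fold change was 0.40 (SE 0.14), with an adjusted p of 0.0514 (limma), just outside the threshold, and edgeR and DESeq2 gave 0.030 and 0.016. The span of a noncoding gene on the opposite strand, 9530052E02Rik, covers 609 of the 6323 exonic bases of Irs2, and whether reads were counted by strand is not given in the sources used here.

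Irs1 (chr1:82233101-82291416, minus strand) varied more from mouse to mouse than Irs2. It had 923.5, 1508, 994.8, 1813 and 1007 normalized counts in vehicle mice 1 to 5, 5036, 1653, 2809, 1520 and 1720 in semaglutide mice 13 to 17, and 1688, 3086 and 1704 in semaglutide + ketone ester mice 19, 21 and 22. The highest value was in semaglutide mouse 13, and the treated groups overlapped vehicle through vehicle mouse 4. The means were 1249 ± 392, 2548 ± 1483 and 2160 ± 803 (SD, n = 5, 5 and 3). Semaglutide against vehicle gave a log2 fold change of 0.92 (SE 0.33, adjusted p = 0.063, limma), which edgeR and DESeq2 called (adjusted p = 0.031 and 0.023) and which was 0.63 (adjusted p = 0.086) without mouse 13. The ester group differed from semaglutide by -0.14 (SE 0.39, adjusted p = 0.83) and from vehicle by 0.78 (SE 0.39, adjusted p = 0.51, limma). The span of Gm9747 on the opposite strand covers 2822 of its 9144 exonic bases.

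The log2 ratio of Irs2 to Irs1 was between -1.01 and 0.07 in vehicle mice, between -2.17 and -0.25 in semaglutide mice and between -2.37 and -1.58 in semaglutide + ketone ester mice. The balance of the substrates in ester mice was thus outside the vehicle range in all 3. Among semaglutide mice, mouse 13 lay inside the ester range, while the other 4 lay between -1.17 and -0.25, above every ester mouse. This ratio, like that of the receptors, was chosen after the values were seen and was not tested.

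Grb10 (chr11:11930508-12038683, minus strand) had 581.3, 582.7, 452.9, 489.0 and 541.4 normalized counts in vehicle mice 1 to 5, 578.3, 533.1, 596.5, 722.5 and 582.6 in semaglutide mice 13 to 17, and 518.6, 417.9 and 347.3 in semaglutide + ketone ester mice 19, 21 and 22. The ester mice were all below the semaglutide mice, and mouse 19 lay inside the vehicle range. Their mean of 428 ± 86.1 (SD, n = 3) was 0.70 of the semaglutide mean of 603 ± 71.1 (SD, n = 5) on the fitted scale (log2 fold change -0.50, SE 0.14, adjusted p = 0.029, limma). The call was lost without semaglutide mouse 15 or 17 or without ester mouse 21 or 22, where adjusted p ran up to 0.143, when low genes were not filtered out (0.051), and with only the 2 groups compared in the fit (0.087). Semaglutide differed from vehicle (529 ± 57.4, SD, n = 5) by 0.19 (SE 0.12, adjusted p = 0.29, limma), and the ester group differed from vehicle by -0.32 (SE 0.14, adjusted p = 0.46).

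**Figure D2:**
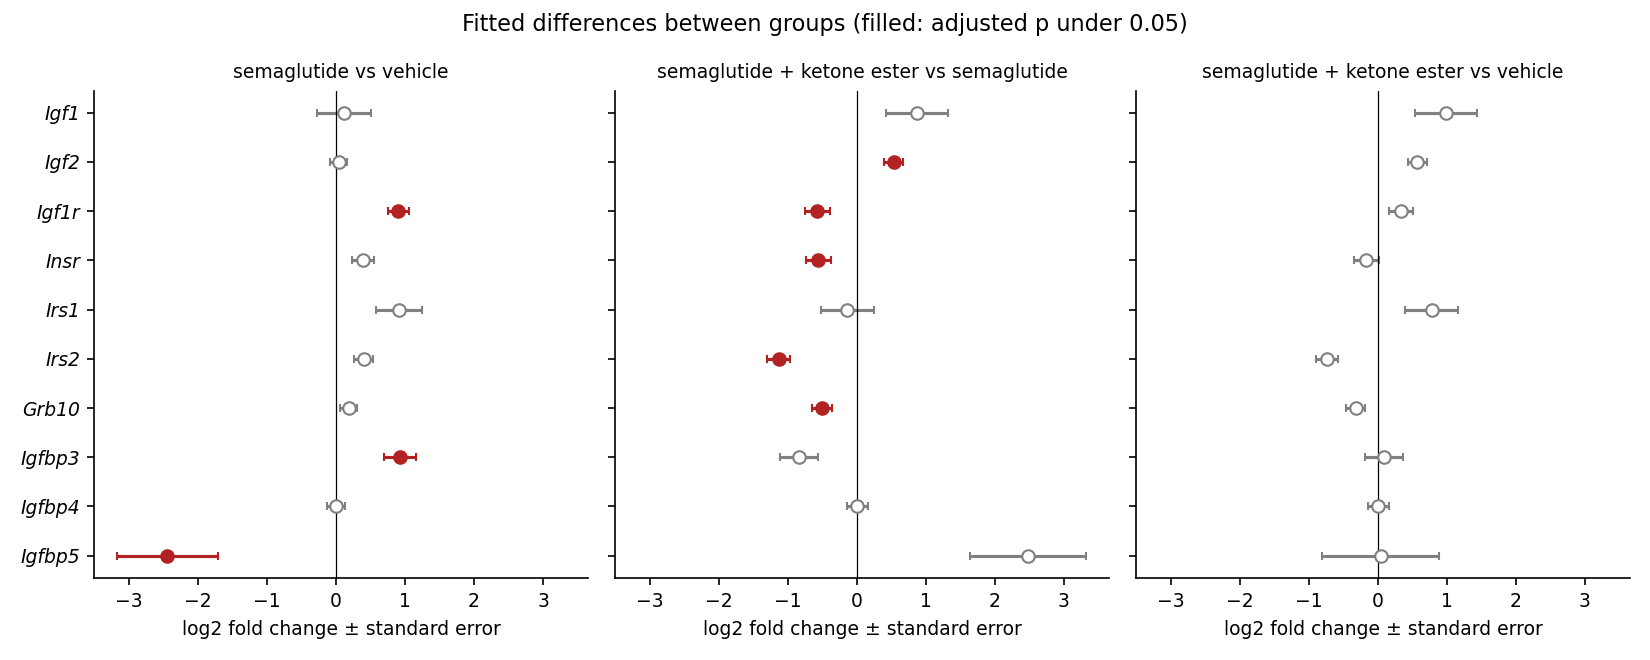
Fitted log2 fold changes (horizontal axis) with standard errors for the 10 genes in the 3 comparisons, with all 13 mice. Filled red points have an adjusted p under 0.05 and open grey points do not. Filled points number 3 for semaglutide against vehicle, 5 for semaglutide + ketone ester against semaglutide and 0 against vehicle.

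Igf1 and Igf2 encode the ligands. Igf1 (chr10:87858265-87937042, plus strand) had 109.9, 345.5, 174.5, 257.2 and 204.9 normalized counts in vehicle mice 1 to 5, 487.4, 122.8, 181.1, 297.2 and 163.4 in semaglutide mice 13 to 17, and 259.9, 490.4 and 516.7 in semaglutide + ketone ester mice 19, 21 and 22. The 3 groups overlapped, and mouse 13 was by far the highest of its group. The means were 218 ± 88.8, 250 ± 147 and 422 ± 141 (SD, n = 5, 5 and 3). None of the comparisons passed (limma), with log2 fold changes of 0.12 (SE 0.39, adjusted p = 0.85) for semaglutide against vehicle, 0.87 (SE 0.45, adjusted p = 0.19) for the ester group against semaglutide and 0.98 (SE 0.45, adjusted p = 0.47) for the ester group against vehicle. Without mouse 13, semaglutide against vehicle was -0.17 (adjusted p = 0.74) and the ester group against semaglutide was 1.15 (adjusted p = 0.044). The span of the antisense gene Igf1os covers 2600 of the 9904 exonic bases of Igf1.

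Igf2 (chr7:142650766-142666816, minus strand) was steadier. Its normalized counts were 301.0, 281.7, 309.3, 277.2 and 296.9 in vehicle mice 1 to 5, 425.5, 308.8, 279.9, 250.5 and 270.0 in semaglutide mice 13 to 17, and 431.2, 433.6 and 445.8 in semaglutide + ketone ester mice 19, 21 and 22. The ester mice lay within a narrow band above all the others, and mouse 13 came closest to them. The ester mean of 437 ± 7.86 (SD, n = 3) was 1.45-fold the semaglutide level (307 ± 69.5, SD, n = 5), with a log2 fold change of 0.53 (SE 0.14, adjusted p = 0.023, limma). Leaving out semaglutide mouse 17 or any of the 3 ester mice raised the adjusted p to between 0.053 and 0.085, equal totals gave 0.30 (adjusted p = 0.089), and a fit of only the 2 groups compared gave an adjusted p of 0.095. Against vehicle (293 ± 13.4, SD, n = 5) the ester group was higher by 0.57 (SE 0.14) with an adjusted p of 0.14 (limma), and without mouse 13 it passed (adjusted p = 0.020). Semaglutide and vehicle differed by 0.04 (SE 0.12, adjusted p = 0.84), or by -0.08 (adjusted p = 0.41) without mouse 13. The annotation also holds Gm49394 on the same strand, whose span covers 5720 of the 5723 exonic bases of Igf2, so the assignment of reads to Igf2 is uncertain.

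Groups that did not overlap between semaglutide + ketone ester and semaglutide were found in Irs2, Igf2, Igfbp3 and Grb10, beside 20.1% of all genes tested. Against vehicle the ester group did not overlap in Igf1r, Irs2 and Igf2, beside 11.3% of all genes.

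The binding proteins behaved unlike one another. Igfbp3 encodes the main carrier of IGFs in blood and is also made in tissues (chr11:7206086-7213923, minus strand). Its normalized counts were 178.5, 185.4, 129.9, 112.0 and 166.5 in vehicle mice 1 to 5, 234.0, 256.9, 207.7, 452.5 and 363.3 in semaglutide mice 13 to 17, and 199.2, 184.8 and 115.4 in semaglutide + ketone ester mice 19, 21 and 22. Each semaglutide mouse was above all mice of both other groups, with mice 16 and 17 the highest. The semaglutide mean of 303 ± 102 (SD, n = 5) against 154 ± 32.0 (SD, n = 5) in vehicle gave a log2 fold change of 0.93 (SE 0.24, adjusted p = 0.015, limma), and the call held when any of the 13 mice was left out. The ester group (166 ± 44.8, SD, n = 3) differed from semaglutide by -0.84 (SE 0.27), which missed the threshold at an adjusted p of 0.0504 (limma) and passed by edgeR and DESeq2 (0.035 and 0.010). Without mouse 13 this difference was -0.91 and passed (adjusted p = 0.030, limma). The ester group differed from vehicle by 0.09 (SE 0.27, adjusted p = 0.96).

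Igfbp4 encodes a binding protein that mainly restrains IGF action (chr11:99041244-99054392, plus strand). It had between 650.0 and 1056 normalized counts in vehicle mice with a median of 906.5, between 746.5 and 981.8 in semaglutide mice with a median of 865.5, and 855.0, 978.4 and 787.1 in the ester mice. The treated groups lay inside the vehicle range. The log2 differences were 0.00047 (SE 0.13), 0.0099 (SE 0.15) and 0.010 (SE 0.15), with adjusted p of 0.998, 0.97 and 0.99 (limma).

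Igfbp5 encodes a binding protein that also attaches to the extracellular matrix (chr1:72857932-72874884, minus strand). Its normalized counts were 13116, 15524, 13776, 11541 and 12055 in vehicle mice 1 to 5, 22891, 3772, 1126, 956.5 and 887.6 in semaglutide mice 13 to 17, and 12440, 17729 and 11203 in semaglutide + ketone ester mice 19, 21 and 22. Semaglutide mice 14 to 17 were below every other mouse, whereas mouse 13 was above every other mouse. With mouse 13, the means were 5927 ± 9560 (SD, n = 5) for semaglutide and 13203 ± 1565 (SD, n = 5) for vehicle, and the log2 fold change was -2.44 (SE 0.73, adjusted p = 0.030, limma). Without it, the log2 fold change was -3.25 (SE 0.36, adjusted p = 9.2e-05). With mouse 13 kept, the call was lost when any vehicle mouse or semaglutide mouse 15, 16 or 17 was left out (adjusted p between 0.052 and 0.075), a fit of only the 2 groups compared gave an adjusted p of 0.053, and edgeR gave -1.15 (adjusted p = 0.27). DESeq2 gave -1.16 without an adjusted p, and this was counted as not called.

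Igfbp5 in the ester group (13790 ± 3466, SD, n = 3) differed from semaglutide by 2.48 (SE 0.84, adjusted p = 0.058, limma), and was higher by 3.29 (adjusted p = 0.00026) without mouse 13. It differed from vehicle by 0.04 (SE 0.84, adjusted p = 0.997). The promoter of Igfbp5, the member with the largest log2 difference, held neither motif on either strand and is shown for comparison with those of Irs1 and Irs2.
Igfbp5, chr1:72874816-72875115, minus strand: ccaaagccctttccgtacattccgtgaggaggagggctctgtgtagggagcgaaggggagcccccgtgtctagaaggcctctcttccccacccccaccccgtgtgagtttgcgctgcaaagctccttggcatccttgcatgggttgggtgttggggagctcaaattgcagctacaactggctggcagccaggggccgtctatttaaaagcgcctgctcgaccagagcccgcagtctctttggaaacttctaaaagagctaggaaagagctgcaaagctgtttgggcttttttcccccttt

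**Figure D3:**
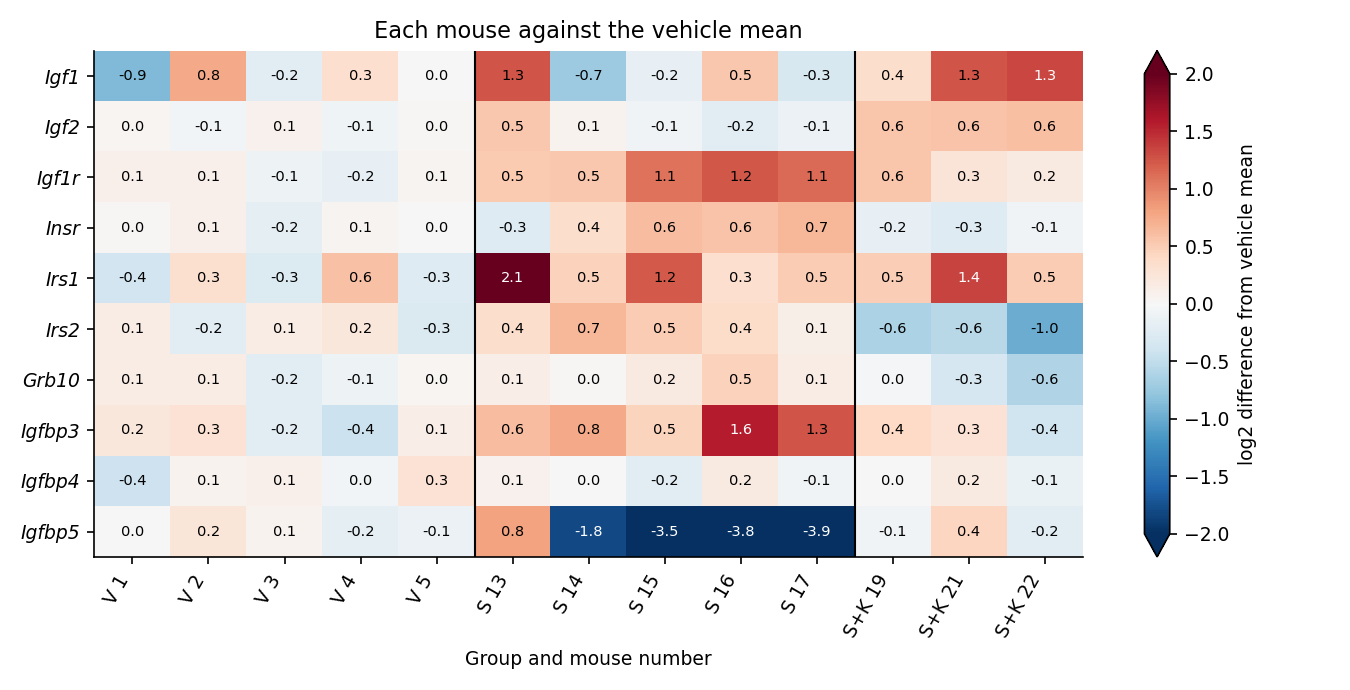
The log2 difference of each mouse from the vehicle mean for the 10 genes, with 1 column per mouse (V, S and S+K as before, mouse numbers from the labels) and colours limited to between -2 and 2. Igfbp5 was strongly lower in semaglutide mice 14 to 17 and higher in mouse 13, whereas Irs2 was lower in all 3 ester mice.

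Like Igfbp5, fibroblast markers differed between semaglutide and vehicle. Between the ester group and semaglutide, Igfbp5 was not called (adjusted p = 0.058, limma), whereas most of these markers were. Of 6 fibroblast markers, 5 were lower in semaglutide than in vehicle and 0 higher, with a median log2 difference of -2.05, and 4 were higher in the ester group than in semaglutide, with a median of 2.10 (limma). Their summed level was between 5915 and 14436 normalized counts in vehicle mice, between 4883 and 7107 in semaglutide mice, where mouse 13 was the highest, and between 8280 and 14040 in ester mice. In this sum mouse 13 (7107) lay inside the vehicle range and below every ester mouse. Its Igfbp5 was the highest of all the mice. Of 4 tendon markers 3 were lower in semaglutide, and their sums were between 1250 and 6696, between 743 and 2695, and between 3209 and 3973 in the same order. In the ester group against semaglutide, 1 tendon marker was higher and 1 lower. The median log2 difference over the 4 was -1.74 for semaglutide against vehicle and 1.57 for the ester group against semaglutide. All markers of both lists passed the filter on low values. Endothelial markers moved less, with 0 of 6 called between semaglutide and vehicle (median -0.08). In the ester group 1 was higher than in semaglutide (median 0.12). Their sums were between 4102 and 5005, between 4136 and 4698, and between 4391 and 5213. Calls in these lists stood beside 25.1% of all genes for semaglutide against vehicle and 18.4% for the ester group against semaglutide. The part of these cell types in the results for the binding proteins was not tested.

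Per kilobase of exon, the vehicle medians ran from 2184 normalized counts for Igfbp5 through 205 for Igfbp4, 153 for Irs2, 127 for Insr, 110 for Irs1, 59.6 for Grb10, 53.2 for Igfbp3, 51.9 for Igf2 and 20.7 for Igf1 to 17.4 for Igf1r. Igfbp5 was thus the most abundant of the 10 transcripts per length in vehicle muscle, and Igf1r and Igf1 were the least abundant. Neighbours in this order overlapped in vehicle mice except Igfbp5 and Igfbp4, Irs1 and Grb10, and Igf2 and Igf1. These levels count all annotated exons of a gene as its length. With the longest transcript as the length, Insr (187) came before Irs2 (153), Grb10 (107) overlapped Irs1 (110), and Igfbp5 remained the highest at 2184.

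The genes whose patterns over the 13 mice were most like those of Igf1r and Igfbp3, both called between semaglutide and vehicle, were found by the root mean square of the log2 differences, each gene being set to its own vehicle mean. For Igf1r they were Tbc1d1 (0.18), Odf2 (0.19) and Ank3 (0.19). For Igfbp3 they were Amotl2 (0.27), Rad9b (0.27) and Rasa3 (0.28). A smaller value means a closer pattern, and these are descriptions over 13 mice without a test.

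Other genes of the pathway were examined in 5 lists that hold 80 genes. Of the 71 that passed the filter on low values, 11 were higher and 6 lower in semaglutide than in vehicle (23.9%, beside 25.1% of all genes), 5 were higher and 15 lower in the ester group than in semaglutide (28.2%, beside 18.4%), and 1 (Foxo1) was lower in the ester group than in vehicle (1.41%, beside 0.236%). Their median log2 differences were 0.03, -0.06 and -0.05.

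Among other ligand, receptor and binding protein genes, 2 of 7 tested passed in semaglutide against vehicle, beside 25.1% of all genes. Stc2, a stanniocalcin that blocks the protease which frees IGFs from binding proteins, had between 16.6 and 50.1 normalized counts in vehicle, between 107 and 156 in semaglutide and between 27.9 and 35.0 in ester mice. It was 2.07 higher on the log2 scale with semaglutide (SE 0.28, adjusted p = 0.00051) and 2.01 lower when the ester was added (SE 0.32, adjusted p = 0.0026, limma). Igfbp7, a secreted protein related to the binding proteins, fell by 0.55 (SE 0.12, adjusted p = 0.0061) with semaglutide and was 0.66 higher with the ester than without (SE 0.13, adjusted p = 0.0069).

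Of 16 other adaptors and inhibitors at the receptor, 1 was called between semaglutide and vehicle and 2 between the treated groups. These counts stood beside 25.1% and 18.4% of all genes. Grb14, a relative of Grb10 that inhibits the insulin receptor, had between 278 and 531 normalized counts in vehicle, between 47.0 and 109 in semaglutide and between 237 and 437 in ester mice. All 5 semaglutide mice were below every other mouse, with a log2 fold change of -2.42 (SE 0.27, adjusted p = 0.00018), and it was 2.08 higher with the ester than without (SE 0.31, adjusted p = 0.0021, limma). Ptpn1, which encodes a phosphatase that switches off the insulin receptor, was between 387 and 508 in vehicle, between 413 and 642 in semaglutide and between 276 and 372 in ester mice. Its log2 fold change was -0.61 (SE 0.15, adjusted p = 0.017) in the ester group against semaglutide and 0.19 (adjusted p = 0.30) in semaglutide against vehicle.

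In the PI3 kinase and AKT list all 15 genes were tested, and 4 were higher and 2 lower with semaglutide, while 2 were higher and 5 lower in the ester group than in semaglutide. These 6 and 7 of 15 stood beside 25.1% and 18.4% of all genes. Akt1, a kinase at the centre of the pathway, had between 855 and 1027 normalized counts in vehicle, between 1751 and 3578 in semaglutide and between 871 and 919 in ester mice. Its log2 fold changes were 1.59 (SE 0.16, adjusted p = 0.00013) and -1.65 (SE 0.19, adjusted p = 0.00098, limma), and mouse 13 was the lowest of the semaglutide mice. Pik3r1, a regulatory subunit of PI3 kinase, was between 516 and 920, between 1030 and 2723 and between 803 and 946, and changed by 1.52 (SE 0.23, adjusted p = 0.0011) and -1.16 (SE 0.27, adjusted p = 0.012). Inppl1, a lipid phosphatase that opposes the pathway, changed by -0.74 (SE 0.14, adjusted p = 0.0039) and 0.84 (SE 0.16, adjusted p = 0.0063). Inpp5k, another inositol phosphatase, was higher by 0.50 with semaglutide (SE 0.13, adjusted p = 0.016) and had a difference of -0.36 between the treated groups (adjusted p = 0.10), or of -0.45 (adjusted p = 0.022) without mouse 13.

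Below AKT, 4 of 19 genes were higher and 1 lower with semaglutide, and 5 were lower in the ester group than in semaglutide. These 5 and 5 of 19 stood beside 25.1% and 18.4% of all genes. Foxo1, a transcription factor restrained by AKT, followed an order of its own. It had between 1175 and 2745 normalized counts in vehicle, between 621 and 1122 in semaglutide and between 302 and 553 in ester mice, with no overlap between any of the groups. Its log2 fold changes were -1.03 (SE 0.27, adjusted p = 0.018) for semaglutide against vehicle, -1.09 (SE 0.32, adjusted p = 0.033) for the ester group against semaglutide and -2.12 (SE 0.32, adjusted p = 0.028, limma) for the ester group against vehicle. Tbc1d1 and Tbc1d4, AKT substrates that hold glucose transporters inside the cell, were higher with semaglutide by 0.97 (SE 0.20, adjusted p = 0.0054) and 0.92 (SE 0.12, adjusted p = 0.00044). Between the treated groups Tbc1d4 fell by 0.67 (SE 0.14, adjusted p = 0.0080), and Tbc1d1 differed by -0.48 (adjusted p = 0.16), or by -0.62 (adjusted p = 0.035) without mouse 13. Tsc1, a brake on mTOR, changed by 0.38 (SE 0.08, adjusted p = 0.0063) and -0.54 (SE 0.09, adjusted p = 0.0035).

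In the RAS and ERK list of 14 genes, 2 were higher and 1 lower with semaglutide, and 1 was higher and 3 lower in the ester group than in semaglutide. These 3 and 4 of 14 stood beside 25.1% and 18.4% of all genes. Rps6ka1, a kinase activated by ERK, fell by 0.66 with semaglutide (SE 0.18, adjusted p = 0.020), and between the treated groups it differed by 0.63 (adjusted p = 0.054), or by 0.81 (adjusted p = 0.00059) without mouse 13. Hras was 1.01 higher in the ester group than in semaglutide (SE 0.26, adjusted p = 0.020), and its difference between semaglutide and vehicle was -0.55 (adjusted p = 0.089) and passed without mouse 13 at -0.81 (adjusted p = 0.00014). Araf, a kinase below RAS, changed by 0.32 (SE 0.09, adjusted p = 0.019) and -0.34 (SE 0.10, adjusted p = 0.033), and Rps6ka3 fell by 0.56 between the treated groups (SE 0.16, adjusted p = 0.033, limma).

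**Figure D4:**
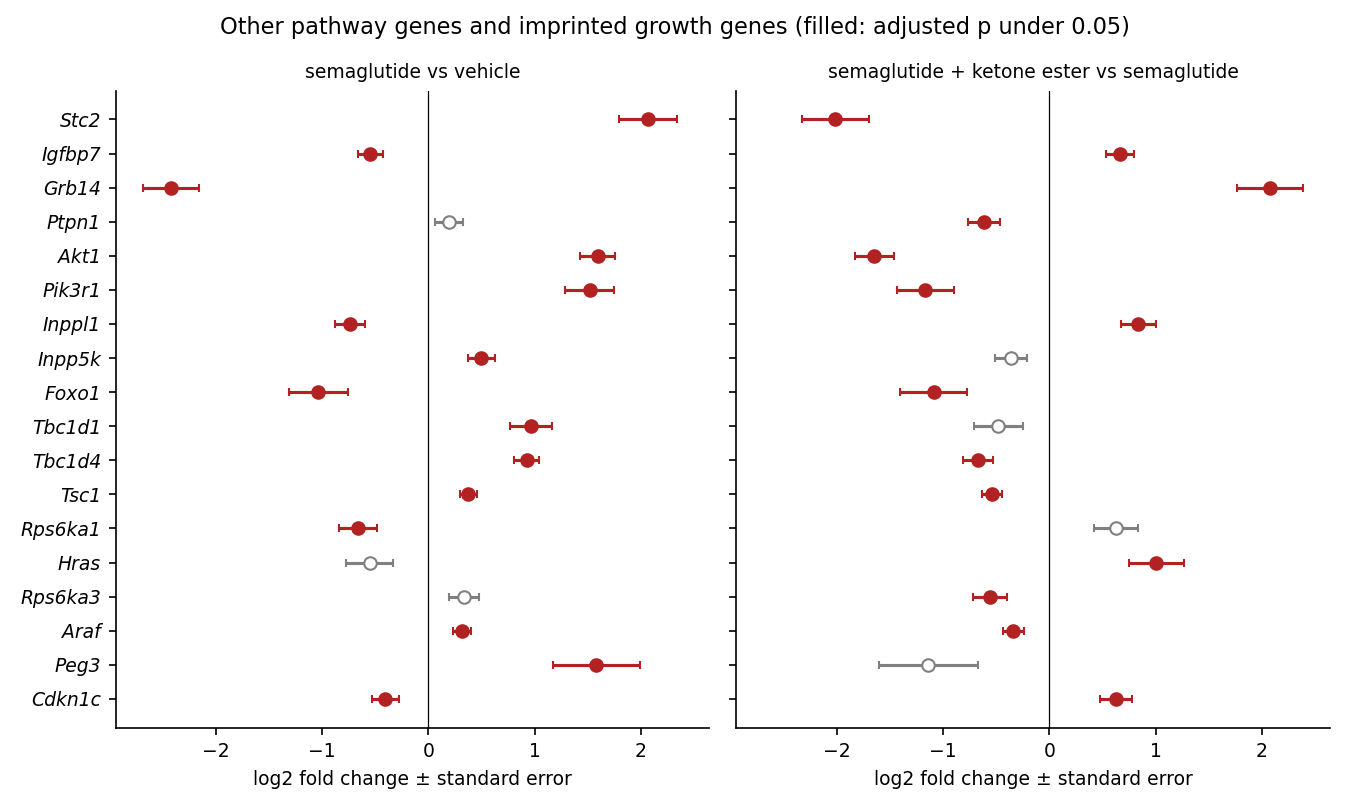
Fitted log2 fold changes (horizontal axis) with standard errors for the genes named from the pathway lists and from a list of imprinted growth genes (Peg3 and Cdkn1c), with all 13 mice. Filled red points have an adjusted p under 0.05 and open grey points do not. Akt1, Pik3r1 and Stc2 lay to the right of 0 for semaglutide against vehicle and to the left for semaglutide + ketone ester against semaglutide, Grb14 the reverse, and Foxo1 lay to the left in both.

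Igf2 and Grb10 are imprinted, that is, expressed mainly from 1 parental copy, so a list of 10 other imprinted growth genes was examined. It had 8 genes in the table, all tested, of which 1 was higher and 1 lower with semaglutide, beside 25.1% of all genes. Peg3 was higher by 1.58 (SE 0.41, adjusted p = 0.016), with between 191 and 305 normalized counts in vehicle and between 333 and 2386 in semaglutide mice, and between the treated groups it differed by -1.14 (adjusted p = 0.11), or by -1.41 (adjusted p = 0.026) without mouse 13. Cdkn1c, a cell cycle inhibitor, fell by 0.40 (SE 0.13, adjusted p = 0.040) with semaglutide and was 0.63 higher in the ester group than in semaglutide (SE 0.15, adjusted p = 0.015, limma).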

How the data were processed

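RNA sequencing measured polyadenylated transcripts in gastrocnemius from 13 mice in 3 groups, given by the treatment labels. RNA was extracted with TRIzol, and libraries from the Illumina Stranded mRNA Prep were sequenced as paired reads of 59 bp on a NextSeq2000. The labels name DRAGEN, DESeq2 and mm10. The counter and annotation are not given in the sources used here. The deposited table holds normalized counts per gene, a signal that the authors obtained by dividing reads by a size factor per library. Whole reads were recovered (100% of values above 0 within 0.05 of a whole number), so each library's depth is known, and 3 reads were between 1.28e-05% and 1.96e-05% of a library.

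Genes with a mean of at least 10 normalized counts (12303) were fitted with limma 3.58.1 in R 4.3.3, without a mean-variance trend, on log2(normalized count + 1), which understates changes of low genes. All 3 groups entered the model. Tests were two-sided. Benjamini-Hochberg adjustment covered all 12303 genes, and a gene was called at an adjusted p under 0.05. The code was tested on simulated data. Each sample was 1 mouse, nothing in the labels pairs mice between groups, and all 13 share 1 batch entry. Alternatives were other pseudocounts (0.5 and 5), filters (none and 50), scalings, samples in the fit, weights per mouse, edgeR 4.0.16 and DESeq2 1.42.0 on the recovered reads, and each mouse left out. A limma fit with a mean-variance trend was added after seeing the data. Named pathway genes were those called in semaglutide against vehicle or semaglutide + ketone ester against semaglutide, at most 4 a list by size of change in the former. For members called in semaglutide against vehicle, the 3 genes with the closest pattern over the mice were named, and those for Igfbp5 are not reported here. The 10 genes, the lists and the tests were chosen with earlier results of these data known. Gene positions are from GENCODE (GRCm38, the same assembly as mm10).

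For the other marker lists, summed normalized counts are given in the order vehicle, semaglutide and ester mice. Calls in either direction are for semaglutide against vehicle, beside 25.1% of all genes. Macrophage sums were 331 to 1072, 364 to 1323 and 478 to 964 (0 of 6 called). Adipocyte sums were 3344 to 7020, 1763 to 19452 and 3753 to 4596 (0 of 6). Satellite cell sums were 237 to 403, 522 to 1127 and 413 to 572 (1 of 5 higher). Smooth muscle sums were 1930 to 2747, 1258 to 2030 and 1697 to 2153 (2 of 4 lower). Blood sums were 1356 to 2291, 50.5 to 3148 and 2849 to 5558 (0 of 5). Schwann cell sums were 685 to 1971, 646 to 2184 and 702 to 1103 (0 of 4).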

Additional observations from a re-analysis of the deposited data

Results flagged for a closer look

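In semaglutide mice, Igfbp5 was flagged because 1 sample lay far from the others. Mouse 13 had 22891 normalized counts and the next highest mouse of the group had 3772. On the linear scale of these counts, the gap between them was 0.869 of the whole range of the group. Gaps on the log2 scale, which the tests used, were not examined. The flag arose in 1 of 20 gene and group combinations examined in the groups of 5, and chance alone flags about 1 in 20.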

How the results depend on the processing

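The 10 genes had at least 109.9 normalized counts in every mouse. The groups held 5, 5 and 3 mice. No paired analysis was possible because the labels give no replicate numbers shared between groups. Between semaglutide and vehicle, 3 of the 10 genes were called, against 5 with a mean of at least 50, 6 with equal totals, and 5 each with weights per mouse, edgeR, DESeq2 and the mean-variance trend. Leaving out 1 mouse gave 2 to 4. Over all genes, 3084 were called, against 3031 with a mean of at least 50, which tests fewer genes. Equal totals gave 4191, weights per mouse 4847, edgeR 3311, DESeq2 3577 and the mean-variance trend 3255. With 1 mouse left out the count was 2065 to 4450. Between the ester group and semaglutide, 5 of the 10 were called, against 2 without a filter, 1 with only the 2 groups compared in the fit and 8 with weights, and 1 to 8 with 1 mouse left out (8 without semaglutide mouse 13, 3 without any vehicle mouse, semaglutide mouse 15 or 16 or ester mouse 19, and 1 without semaglutide mouse 17 or ester mouse 21 or 22). Over all genes, 2262 were called, against 4198 with equal totals, 751 with 2 groups in the fit and 4279 with weights, and 861 to 3959 with 1 mouse left out (3959 without mouse 13, 1500 without mouse 17, 971 without mouse 21 and 861 without mouse 22). Between the ester group and vehicle, 0 of the 10 were called, against 1 with 2 groups in the fit and 2 each with weights and DESeq2, and 0 to 1 with 1 mouse left out. Over all genes, 29 were called, against 4 without a filter, 205 with weights, 45 with edgeR, 172 with DESeq2 and 45 with the trend, and 1 to 77 with 1 mouse left out (77 without mouse 13, and 17 or fewer without vehicle mouse 1, 2 or 3, semaglutide mouse 15 or 17 or any ester mouse). The causes were not tested. Of 720 refits of the 30 gene differences, 595 kept their direction and side of the threshold, 52 lost a call, 42 gained 1, and 31 uncalled differences changed sign. No called difference changed sign.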
